A study of Agaricus blazei with 33 samples.

Results

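The difference between pileus and stipe of Agaricus blazei fruit bodies was compared between the button stage and the maturation stage, and the genes whose difference changed were described. The change of the difference is maturation pileus minus maturation stipe, less button pileus minus button stipe, which equals the change of the pileus from button to maturation less the change of the stipe. The 4 groups were the pileus at the button stage, the stipe at the button stage, the pileus at the maturation stage and the stipe at the maturation stage, each with 3 libraries, so 12 of the 33 libraries of the series carried the comparison. Of 10337 genes in the expression table, 9338 had a mean of at least 0.5 FPKM (fragments per kilobase of gene length, scaled to library size) over the pileus and stipe libraries and were tested, and 876 of them were called. All groups were the same heterokaryotic cultivar, strain JA, grown on compost with no treatment, and the reads were placed on the assembly JA-15036, which came from a homokaryon grown from a single spore of this strain. The 6 harvest pileus and stipe libraries shared the estimate of the spread and are shown beside the 12, and the button and maturation fruit body libraries served as separate libraries. The labels do not say whether the libraries of a group came from separate fruit bodies, so the p-values measure only the spread between these libraries. In such bulk samples fewer cells of a type and less RNA per cell cannot be told apart.

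The pileus is the cap of the mushroom and carries the gills, whose surface cells, the basidia, pass through nuclear fusion and meiosis and then release basidiospores. The stipe carries the cap and lengthens while the cap opens. A gene can therefore move between the tissues by rising or falling in the cap, by rising or falling in the stalk, or by both at once, and the called genes were sorted in that way.

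The depth over the 12 libraries was 15690772 to 21454052 reads on genes. Of the 12 libraries, 2 stood apart from their labels, and their part is given with the results. Each library was placed on a scale from the mean of the other tissue of its stage (0%) to the mean of the other libraries of its own tissue (100%), over the genes that separated the tissues without that library. Maturation pileus 3 lay at a median of 25.8% over 3486 genes, and 26.3% of these genes were nearer to its own tissue. Button stipe 1 lay at a median of 41.3% over 2427 genes, and 36.8% were nearer to its own tissue. The other 10 libraries had medians of 82.6% to 133% and 93.7% to 99.4% of genes nearer to their own tissue. In correlation over genes of log2(FPKM + 0.1), a description since genes are not independent, maturation pileus 3 reached 0.877 to 0.891 with the other mature pilei and 0.934 to 0.940 with the mature stipes. Button stipe 1 reached 0.918 to 0.932 with the other button stipes and 0.924 to 0.959 with the button pilei. The library labelled maturation pileus 3 is written as such throughout, and the main counts and the leading genes are also given without these 2 libraries. Whether samples were exchanged or tissues mixed could not be told from the files. The library size behind the FPKM, divided by the reads on genes, ran from 0.742 in maturation pileus 3 to 1.16 in button pileus 1 and 2, so that the scaling differed between libraries.

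**Figure D1:**
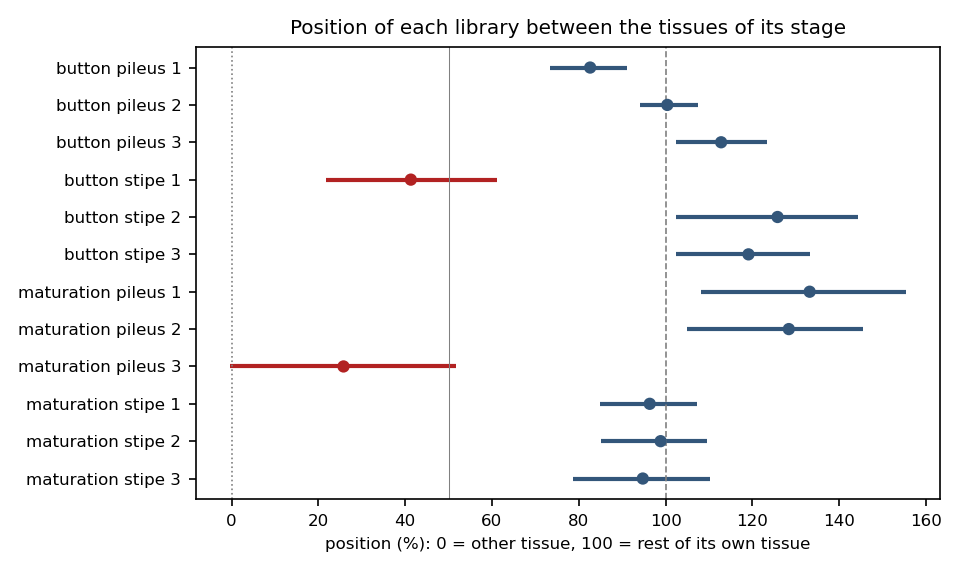
Position of each of the 12 libraries between the tissues of its stage, in percent, where 0 is the mean of the other tissue and 100 the mean of the other libraries of its own tissue. Points are medians and bars the quartiles over genes, with button stipe 1 (41.3%) and maturation pileus 3 (25.8%) in red and the other 10 libraries between 82.6% and 133%.

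The tissue labels were checked against a list of meiosis genes, expected in the gills of the pileus. Mycelium of the compost that could cling to a stipe base was checked with a list for breaking down plant cell walls. The summed level of 24 genes of meiosis was 1806, 1599 and 766 FPKM in maturation pileus 1, 2 and 3, against 563 to 577 FPKM in the mature stipes. At the button stage it was 941 to 985 FPKM in the pilei and 755 to 902 FPKM in the stipes. The summed level of 53 genes for breaking down plant cell walls was 4353 to 5582 FPKM in the mature stipes and 3476, 3511 and 4624 FPKM in the mature pilei. In buttons the tissues overlapped on this list, at 2003 to 2123 FPKM in the pilei and 1716 to 2210 FPKM in the stipes. Whether compost mycelium added to the level of the mature stipes was not tested. On both lists the library labelled maturation pileus 3 was nearer to the stipes than the other mature pilei were.

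The pileus-stipe difference changed in 876 of 9338 genes (9.38% of those tested) at an adjusted p under 0.05 and a size of at least 1 on the log2(FPKM + 0.1) scale, by limma with Benjamini-Hochberg adjustment over all tested genes. It was higher at maturation, that is moved towards the pileus, in 551 genes (5.9%) and lower, towards the stipe, in 325 genes (3.48%). An unadjusted p under 0.05 was reached by 2518 genes. Without maturation pileus 3 the count was 2202 genes (23.6% of those tested), with 1305 higher (14.0%) and 897 lower (9.6%). Without button stipe 1 it was 1203 genes (12.9%), with 731 higher (7.83%) and 472 lower (5.06%). Without both it was 2489 genes (26.6%), with 1462 higher (15.7%) and 1027 lower (11%). Of the 876 genes, 850 were also called without both libraries, all in the same direction, which is 97.0% of the 876 and 34.2% of the 2489. The libraries left out were those nearest to the other tissue of their stage. Calls kept and p-values reached without them are therefore no separate support for these genes. The split between the directions depended on the scaling, with 548 higher (5.87%) and 490 lower (5.25%), 11.1% together, after quantile normalization, and 410 higher (4.39%) and 417 lower (4.47%) after scaling to library totals. With voom weights on reads recovered from the FPKM it called 700 genes (7.5%), 393 higher (4.21%) and 307 lower (3.29%). Without button pileus 3 the count was 561 genes (350 higher and 211 lower), the lowest when a single library was left out. The genes called higher numbered 367 without button pileus 2 and 362 without maturation pileus 1.

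Most of the called genes passed the test of change in a single tissue. A tissue that missed its test may still have moved, so a change in a tissue alone means here that only this tissue was called. The pileus rose from button to maturation, with no call in the stipe, in 244 genes, and these had a median change of the difference of 2.77 on the log2 scale. The stipe fell alone in 169 genes, with a median of 2.11. In the other direction the pileus fell alone in 124 genes (median -1.78) and the stipe rose alone in 102 genes (median -1.76). The tissues moved apart, with both past their own test, in 34 genes called higher and 6 called lower. Both rose in 33 and 15, both fell in 15 and 15, and neither passed its own test in 56 and 63. For comparison, 13.7% of all tested genes rose and 12.5% fell in the pileus, and 12.4% rose and 13.8% fell in the stipe. Without both libraries these shares were 15.2% and 12.5% in the pileus and 12% and 14.4% in the stipe. Without both libraries the pileus rose alone in 551 genes, the stipe fell alone in 442, the pileus fell alone in 346 and the stipe rose alone in 331. With 1 library left out, the genes that rose in the pileus alone numbered 144 without maturation pileus 1, 161 without maturation pileus 2 and 493 without maturation pileus 3.

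**Figure D2:**
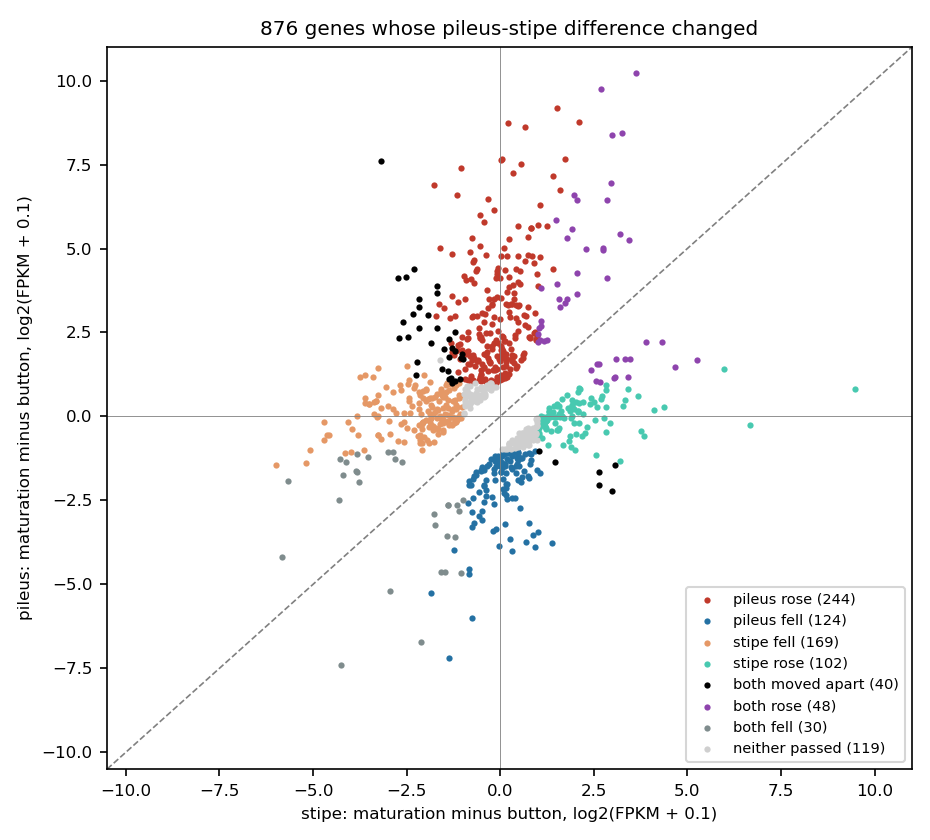
Change from button to maturation in the stipe (horizontal) and in the pileus (vertical), both on the log2(FPKM + 0.1) scale, for the 876 called genes, coloured by the tissue that passed its own test. Genes above the dashed diagonal moved towards the pileus (551) and genes below it towards the stipe (325), and the empty band along the diagonal is the minimum size of 1.

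By stage, 7.91% of all tested genes were higher in the pileus and 9.96% in the stipe in buttons, and 13.6% and 11.5% at maturation. Of the called genes, 274 of those called higher and 139 of those called lower differed between the tissues past the test at maturation and not at the button stage. Another 146 and 81 differed past the test at the button stage and not at maturation. The tissues differed at both stages with opposite signs in 38 genes that went from stipe at the button stage to pileus at maturation and in 18 that went the other way. Neither stage passed its own test in 77 and 83 genes, and 16 and 4 stayed on the same side. With 1 library left out, the genes that differed at the button stage and not at maturation numbered 455 without button stipe 1 and 124 without button pileus 3. Those that differed at maturation and not at the button stage numbered 1257 without maturation pileus 3 and 257 without maturation pileus 1. These classes rest on passing or missing a threshold at each stage, while the change itself was tested in all 876.

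The genes that rose in the mature pileus included most of the 10 largest gains, taken among called genes with a mean of at least 20 FPKM in 1 of the 4 groups. Genes that StringTie predicted bear only a running number in the table and are given here by their position. Per-library values are given in the order of libraries 1, 2 and 3 of each group. A01110 encodes a ferritin-like domain, the fold in which ferritins hold iron (contig 12, 1258531 to 1259490, plus strand). Its level was 5.09, 5.04 and 5.32 FPKM in the button pilei and 3.72, 3.49 and 2.65 FPKM in the button stipes. At maturation the pilei were at 1603, 1128 and 138 FPKM and the stipes at 1.7, 0.567 and 0.7 FPKM. Of these 12 libraries the mature pilei were the highest, with the lowest of them, maturation pileus 3, still far above the stipes. Its difference changed by 8.67 ± 1.03 (SE, limma adjusted p = 0.000259), and by 9.67 (adjusted p = 8.1e-07) without both libraries. A03363 encodes a multicopper oxidase, the family of the laccases, which oxidise phenols with copper (contig 1, 4212489 to 4214743, minus strand). It was at 5.84, 5.28 and 3.83 FPKM in the button pilei and 10.7, 3.48 and 2.53 FPKM in the button stipes. The mature pilei held 833, 835 and 162 FPKM and the mature stipes 1.94, 1.81 and 2.27 FPKM, so that the button tissues overlapped and the mature tissues did not. The change was 7.75 ± 0.83 (SE, limma adjusted p = 0.000133), and 7.93 (adjusted p = 8.99e-08) without both libraries. A05683 encodes a polysaccharide deacetylase, a family that removes acetyl groups from chitin and related polymers. It stood at 0.685, 0.616 and 1.11 FPKM in the button pilei and 1334, 1015 and 102 FPKM in the mature pilei, against 0.455, 0.517 and 0.384 FPKM and 1.58, 1.48 and 1.36 FPKM in the stipes of the same stages. Mature pilei were the highest of these 12 libraries, and the change was 7.68 ± 1.03 (SE, limma adjusted p = 0.000614), or 8.84 (adjusted p = 6.35e-07) without both libraries. Gene lists were made by words in the gene descriptions, so that the largest member of a list is the largest of the genes those words found. The counts of a list stand against 5.9% of all tested genes called higher and 3.48% called lower, or 15.7% and 11% without both libraries. Of 19 multicopper oxidase genes 3 were called higher and 0 lower (6 and 1 without both, 2 and 1 with quantile normalization). Of 78 genes that build or remodel chitin and glucan 6 were higher (7.69%) and 0 lower, which is near the share of all genes. These counts were 17 and 5 without both, 5 and 3 with quantile normalization and 4 and 2 with library totals.

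Other genes among the 10 largest gains also rose in the pileus, some without a description and some with a known domain. The genes A08490, A03674 and A03382 have no description. A08490 went from 4.27, 2.52 and 3.51 FPKM in the button pilei to 3482, 2640 and 343 FPKM in the mature pilei, with 5.37, 6.18 and 3.29 FPKM in the mature stipes (change 8.51 ± 1.02 SE, adjusted p = 0.000272). A03674 reached 10220, 7949 and 1142 FPKM in the mature pilei from 27, 24.4 and 28.9 FPKM (change 8.45 ± 0.90 SE, adjusted p = 0.000133), and A03382 reached 820.3, 664 and 101 FPKM from 0.562, 1.26 and 0.89 FPKM (change 7.96 ± 1.31 SE, adjusted p = 0.00204). In these genes the pileus libraries of the 2 stages did not overlap. A StringTie gene with an RNA recognition motif (contig 10, 725778 to 727895, plus strand) rose from 0.46, 0.379 and 0.808 to 295, 256 and 27.3 FPKM in the pileus and was at 0.143, 0.241 and 0.0765 FPKM in the mature stipes (change 7.62 ± 1.17 SE, adjusted p = 0.00152). The fasciclin-domain gene A00164, of a fold known from cell adhesion proteins, rose in both tissues. It rose to 1737, 1117 and 94 FPKM in the mature pilei and to 2.6, 2.91 and 1.37 FPKM in the mature stipes, from under 1 FPKM in all button libraries (change 7.05 ± 1.24 SE, adjusted p = 0.0029). Without both libraries the changes of these 5 genes were 9.88, 9.53, 9.94, 9.15 and 7.79, each past the test.

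Enzymes at high levels in the mature cap were added after their values were seen. A03370, of the NADH:flavin oxidoreductase family, which reduces carbon-carbon double bonds in many substrates, was at 8.59, 11.6 and 8.57 FPKM in the button pilei and 25190, 20880 and 2960 FPKM in the mature pilei. The stipes were at 13.5, 63.3 and 41.7 FPKM in buttons and 604, 492 and 234 FPKM at maturation, so it rose in both tissues, and by more in the cap (change 6.60 ± 1.02 SE, adjusted p = 0.00153, or 8.23, adjusted p = 7.1e-07 without both libraries). A08358, a glycosyl hydrolase of family 47, known as mannosidases that trim the sugar chains of glycoproteins, rose from 25.2, 24.9 and 25.3 to 3320, 2518 and 328 FPKM in the pileus and stood at 7.8, 9.05 and 6.72 FPKM in the mature stipes (change 6.23 ± 0.98 SE, adjusted p = 0.00167). A glyoxal oxidase gene, A06207, of a copper enzyme family that makes hydrogen peroxide, rose from 9.9, 10.2 and 11.3 to 262, 213 and 24.3 FPKM in the pileus, against 5.54, 4.34 and 7.14 FPKM in the mature stipes (change 4.52 ± 0.88 SE, adjusted p = 0.0053). In each of these 3 genes the library labelled maturation pileus 3 was the lowest of the mature pilei.

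The called genes of meiosis and recombination moved towards the pileus. Of 24 tested genes of this list, 4 were called higher and 0 lower, against 5.9% and 3.48% of all genes, and the list's median change was 0.51 against 0.004 over all genes. The list's median was 0.36 for the pileus change and -0.34 for the stipe change. Without both libraries 10 were called higher and 0 lower, with a median of 0.78. With voom weights 2 were called higher and 0 lower. The median stayed positive with quantile normalization (0.35) and library totals (0.42). A01318 encodes a protein of the Mnd1 family, which in yeast acts with recombinases when a broken strand invades the paired chromosome. It was at 1.84, 0.844 and 2.01 FPKM in the button pilei and 1.7, 0.579 and 1.34 FPKM in the button stipes. Mature pilei stood at 104, 102 and 12 FPKM and mature stipes at 1.31, 1.17 and 1.08 FPKM. Only the mature pilei were above 3 FPKM among these 12 libraries, and the change was 4.91 ± 0.91 (SE, limma adjusted p = 0.00409), or 5.65 (adjusted p = 4.44e-06) without both. A HORMA-domain gene that StringTie predicted (contig 2, 1761239 to 1765024, plus strand), a domain shared by yeast Hop1 of the meiotic chromosome axis and by checkpoint proteins, rose from 23.6, 30.9 and 32.2 to 169, 134 and 32.1 FPKM in the pileus, against 19.1, 17.5 and 20 FPKM in the mature stipes (change 2.23 ± 0.65 SE, adjusted p = 0.0378). The call of the HORMA gene was lost without any 1 of the 12 libraries other than button stipe 1 and maturation pileus 3 (adjusted p from 0.0628 to 0.0968). A09162 is a type IIB topoisomerase, the family of Spo11, which makes the breaks that start recombination. It was at 109, 99.5 and 11.3 FPKM in the mature pilei and 4.37, 2.71 and 4.52 FPKM in the mature stipes, but missed the threshold (change 2.29 ± 0.86 SE, adjusted p = 0.0968) and passed it without both libraries (3.29, adjusted p = 3.24e-05).

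The median changes of the replication genes and histones were negative in both tissues, and smaller in size in the pileus. The medians of the pileus and stipe changes were -0.93 and -1.63 for 36 DNA replication genes, and -1.76 and -2.51 for 15 histone genes. The summed level of the replication genes was 2196 to 2550.0 FPKM in the button pilei and 1205 to 1890.0 FPKM in the button stipes. It was 2343, 2111 and 722 FPKM in maturation pileus 1, 2 and 3 and 585 to 677 FPKM in the mature stipes. By this sum maturation pileus 1 and 2 were at about the level of the button pilei. Maturation pileus 3, which stood apart from its label, was near the mature stipes. The sum rested in part on 1 gene, A03160, at 793 and 595 FPKM in maturation pileus 1 and 2 against 28.1 to 29.2 FPKM in the button pilei. Past the test, 14 members of the list fell and 1 rose in the pileus, and 22 fell and 0 rose in the stipe. Of these 36 genes 2 were called higher and 0 lower, with a median change of 0.46 (0.29 with quantile normalization and 0.37 with library totals), and without both libraries 13 were called higher and 0 lower, with a median of 0.79. The largest was A03160, the Dna2 nuclease and helicase that trims fragments of the lagging strand. It was at 28.1, 29.2 and 28.5 FPKM in the button pilei and 26.8, 17.8 and 22.1 FPKM in the button stipes. In mature pilei it was at 793, 595 and 86 FPKM, with 10.1, 9.34 and 7.58 FPKM in mature stipes (change 4.87 ± 0.83 SE, adjusted p = 0.00243). Of the histone genes 1 was called higher and 0 lower, and 7 higher and 0 lower without both. The called one was the linker histone A04602, which rose in the pileus from 82.3, 62.6 and 48.4 to 108, 119 and 155 FPKM. In the stipe it fell from 233, 517 and 437 to 170.0, 136 and 158 FPKM (change 2.29 ± 0.40 SE, adjusted p = 0.00278). Another linker histone, A04679, named after its values were seen, fell in both tissues. It went from 459, 489 and 512 to 212, 193 and 29.7 FPKM in the pileus and from 503, 212 and 240.0 to 19.2, 20.1 and 18 FPKM in the stipe, with a change of 1.76 ± 0.80 (SE, limma adjusted p = 0.173) that passed without both libraries (2.29, adjusted p = 0.000327).

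Regulators that rose in the mature cap belonged to several classes. The homeobox gene A06804 had the largest gain in a list of 106 transcription factors, which left out helix-loop-helix genes (8 higher and 2 lower, or 16 and 12 without both). It went from 4.94, 5.73 and 5.36 to 85, 75.4 and 11.6 FPKM in the pileus with 5.04, 6.66 and 6.26 and 5.29, 4.83 and 5.72 FPKM in the stipes (change 3.13 ± 0.76 SE, adjusted p = 0.0157). The protein kinase A04418, the largest gain in a list of 128 genes described as protein kinase (11 higher and 3 lower, or 18 and 16 without both and 11 and 6 with quantile normalization), went from 11.7, 13.9 and 13 to 269, 224 and 20.7 FPKM in the pileus and from 9.11, 15.4 and 18.5 to 3.19, 2.48 and 2.34 FPKM in the stipe (change 5.39 ± 0.99 SE, adjusted p = 0.00367). A cyclin gene, A01120, of the family that drives cell cycle kinases, went from 9.05, 10.3 and 8.04 to 604, 490.2 and 52 FPKM in the pileus, with 14, 16.1 and 21.5 FPKM in the mature stipes (change 3.69 ± 0.95 SE, adjusted p = 0.0216). Its call was lost without button pileus 3, button stipe 2, maturation pileus 1, maturation pileus 2 or maturation stipe 1 (adjusted p from 0.0513 to 0.0583). A retroelement gene, A07506, with an aspartyl protease and a chromodomain, rose from 3.26, 2.91 and 3.24 to 108, 86.6 and 17.3 FPKM in the pileus (change 4.87 ± 0.77 SE, adjusted p = 0.00167).

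**Figure D3:**
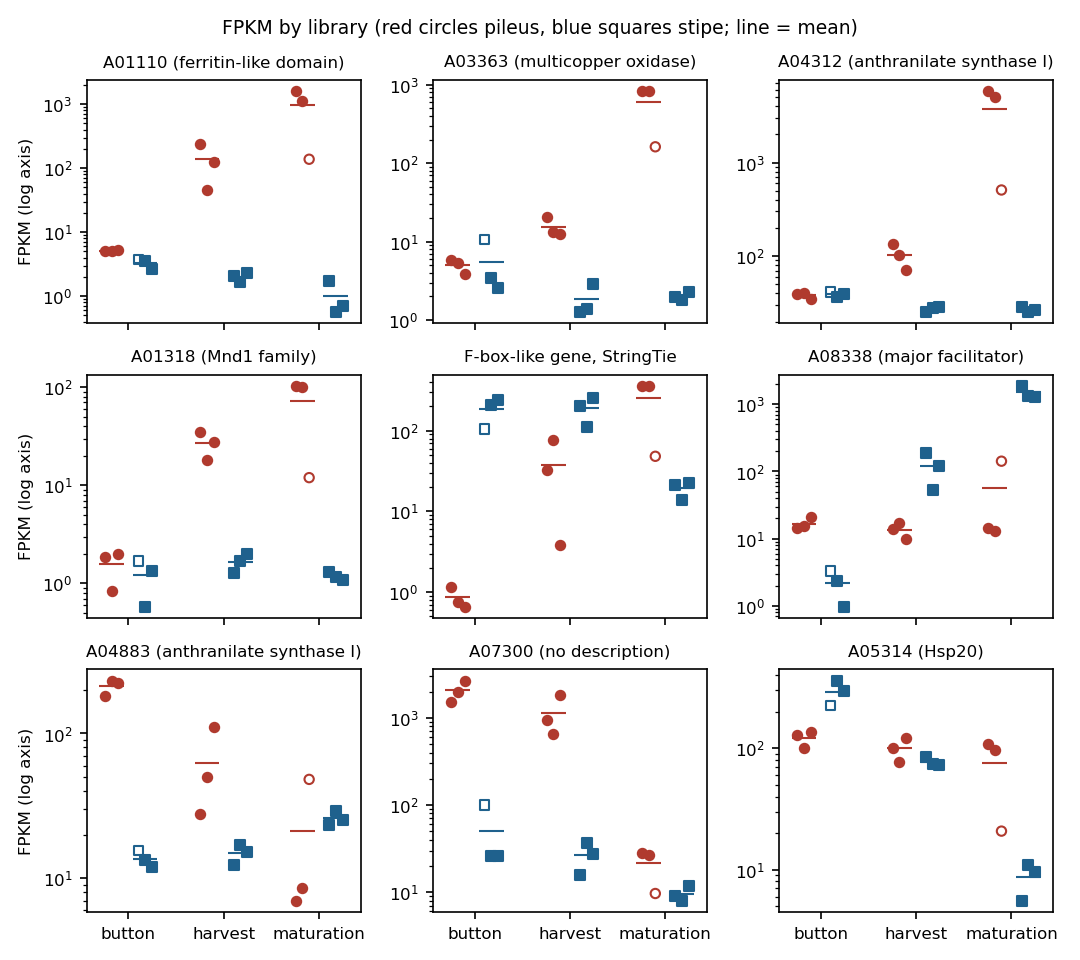
FPKM on a log axis in the 18 pileus and stipe libraries for 9 genes named in the text, with pileus libraries as red circles, stipe libraries as blue squares, a line at each group's mean, and open symbols for maturation pileus 3 and button stipe 1. A01110, A03363, A04312 and A01318 climbed in the pileus, A08338 climbed in the stipe, A04883 and A07300 fell in the pileus, A05314 fell in the stipe, and the F-box-like gene passed from stipe to pileus.

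The pathway to chorismate and tryptophan held genes that moved in opposite directions. This group of 17 tested genes was put together after their values were seen, and 3 were called higher, 1 lower and 13 neither (4 higher and 2 lower without both). Anthranilate synthase takes chorismate, the end product of the shikimate pathway, into tryptophan synthesis, and the table holds 2 genes with its component I and glutamine amidotransferase domains. A04312 (contig 1, 3218238 to 3220542, plus strand) was at 39.6, 40.1 and 35.1 FPKM in the button pilei and 41.3, 36.6 and 38.9 FPKM in the button stipes. By maturation the levels were 5804, 5009 and 509 FPKM in the pilei and 28.6, 25.6 and 26.8 FPKM in the stipes. A04883 (contig 22, 258370 to 260673, minus strand) was at 181, 232 and 222 FPKM in the button pilei and 15.5, 13.2 and 11.9 FPKM in the button stipes. At maturation the pilei were at 6.91, 8.55 and 48.1 FPKM and the stipes at 23.2, 29.2 and 25.4 FPKM. The first was thus at a like low level in the other 3 groups and high in the mature pileus, and the second was highest in the button pileus. Their changes were 6.53 ± 0.87 (SE, limma adjusted p = 0.000606) for A04312 and -4.81 ± 0.80 (SE, limma adjusted p = 0.0021) for A04883, and 7.62 and -5.79 without both libraries. Upstream, chorismate synthase (A03916) rose from 128, 91 and 82.1 FPKM in the button pilei to 1148, 898 and 917 FPKM in the mature pilei, while the stipes went from 242, 194 and 206 to 343, 279.6 and 288 FPKM. It passed from higher in the stipe to higher in the pileus, with maturation pileus 3 at the level of the other mature pilei (change 2.81 ± 0.27 SE, adjusted p = 8.5e-05). The AROM polypeptide gene (A00274), which carries several successive steps before chorismate in fungi, rose from 94.5, 59.6 and 54.2 to 304, 266 and 182 FPKM in the pileus (change 1.70 ± 0.35 SE, adjusted p = 0.00703). Of the genes for the entry step, the DAHP synthetases, A07284 was at 1479, 1166 and 745 FPKM in the mature pilei. It did not pass (change 0.69 ± 0.56 SE, adjusted p = 0.469) but was called higher without both libraries. A05249 (change 0.35, limma adjusted p = 0.585) and A06654 (change -0.17, limma adjusted p = 0.833) were not called with or without both libraries.

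Genes for the turnover of gamma-glutamyl compounds, also grouped after their values were seen, were called higher in 3 of 11 and lower in 0. Gamma-glutamyl cyclotransferases release 5-oxoproline from glutathione and related peptides, and oxoprolinases open it to glutamate. The oxoprolinase gene A05064 was at 49.5, 52 and 44.2 FPKM in the button pilei and 65.9, 58.3 and 67.6 FPKM in the button stipes. The mature pilei held 3279, 2432 and 556 FPKM and the mature stipes 38, 43.2 and 52.7 FPKM (change 5.61 ± 0.62 SE, adjusted p = 0.000171). A00262, whose model joins oxoprolinase to WH1 and WH2 actin-regulator domains, was at 37, 38 and 36.2 FPKM in the button pilei and 1293, 890.2 and 377 FPKM in the mature pilei, with 48.4, 44.8 and 52 FPKM in the mature stipes (change 4.21 ± 0.41 SE, adjusted p = 9.19e-05). The cyclotransferase gene A06149 was already higher in the button pileus, at 94.7, 135 and 135 FPKM against 17.6, 48.9 and 38 FPKM in the stipe, and reached 4163, 3552 and 489.8 FPKM in the mature pilei against 48.4, 40.4 and 46 FPKM (change 3.53 ± 0.85 SE, adjusted p = 0.0151). A05064 and A00262 were flat in the other groups, including harvest. There the pilei held 40.2, 35.5 and 45.8 FPKM of A05064 and 36.2, 41.1 and 39.6 FPKM of A00262. Other genes with oxoprolinase domains, A04570 (change 0.55, limma adjusted p = 0.218) and A05198 (change 0.22, limma adjusted p = 0.4925), were not called.

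The list of nitrogen and urea metabolism had 5 of 21 members called higher (23.8%, against 5.9% of all tested genes) and 0 lower, with a median change of 0.61 that was 0.54 with quantile normalization (5 higher and 2 lower) and 0.52 with library totals. Without both libraries 6 were higher and 2 lower, where 15.7% and 11% of all genes were called. Members of arginine synthesis took different routes to the same sign. The gene A01394 for the small chain of the synthase that makes carbamoyl phosphate, the source of the carbamoyl group of citrulline, fell in both tissues and by more in the stipe. It went from 489.9, 406 and 470.5 to 162, 152 and 129 FPKM in the pileus and from 867, 2611 and 1531 to 86.9, 102 and 132 FPKM in the stipe (change 2.21 ± 0.53 SE, adjusted p = 0.015). The large chain (A01423) was called for a fall in the stipe only, from 600.0, 1049 and 907 to 144, 216 and 133 FPKM. It was at 389, 370.1 and 393 and 738, 728 and 197 FPKM in the pilei (change 2.67 ± 0.57 SE, adjusted p = 0.0084). Maturation pileus 1 and 2 were above the button pilei in A01423, and maturation pileus 3 was below them. Argininosuccinate lyase (A09761), the last step to arginine, rose in the pileus from 96.2, 91.7 and 83.8 to 558, 452 and 394 FPKM (change 1.57 ± 0.39 SE, adjusted p = 0.0179). The call of A09761 was lost without button stipe 3 (adjusted p = 0.0509). Ornithine carbamoyltransferase (A02462) had a change of 1.11 ± 0.29 (SE, limma adjusted p = 0.0219) that fell under the size of 1 without both libraries (0.96, adjusted p = 0.00824) and was lost also without button pileus 2, button pileus 3, button stipe 1, maturation pileus 1, maturation stipe 1 or maturation stipe 2 (adjusted p from 0.0302 to 0.0616). A01674, a model that joins a glutamate dehydrogenase family domain to a fatty acid desaturase domain, rose in the pileus from 90.5, 56.5 and 56.8 to 406, 457 and 937 FPKM, against 489, 789.6 and 1190 and 753, 674 and 328 FPKM in the stipes. This ended the lead the stipe had in buttons (change 3.56 ± 0.56 SE, adjusted p = 0.00167).

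Transporters, a kinase and enzymes of sugar metabolism also rose in the pileus. The tyrosine kinase family gene A07516, which the words of the kinase list did not find, was at 23.1, 4.32 and 3.07 FPKM in the button pilei and 289, 624 and 712 FPKM in the button stipes, and at 2403, 2081 and 501 FPKM and 604, 478 and 457 FPKM at maturation (change 7.61 ± 1.49 SE, adjusted p = 0.00537). The tissues did not overlap in buttons, and among the mature libraries maturation pileus 3 lay among the stipes. The sugar and major facilitator transporters had 14 of 138 members called higher and 8 lower (31 and 17 without both), with the largest gain in a StringTie gene (contig 11, 60824 to 63524, plus strand). It rose from 0.942, 0.501 and 0.326 to 446, 363 and 60.8 FPKM in the pileus and from 3.81, 8.07 and 6.58 to 62.4, 49.2 and 34.7 FPKM in the stipe (change 5.39 ± 0.81 SE, adjusted p = 0.00141). The amino acid permease A08234, the largest gain among 60 water, ion, nitrogen and peptide transporters (7 higher and 0 lower, or 4 and 1 with quantile normalization and 10 and 7 without both), rose from 69.9, 44.7 and 34.7 to 489.6, 511 and 205 FPKM in the pileus and was at 104, 63.5 and 85.2 FPKM in the mature stipes (change 2.69 ± 0.49 SE, adjusted p = 0.00335). In the list of glycolysis, trehalose and mannitol, with 3 of 23 higher and 0 lower (7 and 1 without both, but 1 and 0 with quantile normalization, library totals or voom weights), the trehalose-phosphate synthase and phosphatase gene A04386 rose from 22.9, 21.9 and 23.9 to 166, 119 and 88.1 FPKM in the pileus (change 1.41 ± 0.30 SE, adjusted p = 0.00809). Phosphoenolpyruvate carboxykinase (A09444), the entry to glucose synthesis, rose from 99.3, 91.4 and 80.8 to 546, 444 and 339.7 FPKM in the pileus, against 126, 227 and 197 and 314, 349.8 and 374 FPKM in the stipes (change 1.31 ± 0.32 SE, adjusted p = 0.0151). A lysine-specific metallo-endopeptidase, A04187, rose in both tissues, from 60.4, 59.7 and 57.1 to 5554, 5629 and 716 FPKM in the pileus and from 178, 381 and 334 to 1127, 744 and 1500 FPKM in the stipe (change 3.64 ± 0.85 SE, adjusted p = 0.0132). Another of this family, A08276, the largest gain among 152 peptidases (11 higher and 5 lower, or 22 and 14 without both), rose in the pileus from 18.6, 6.57 and 6.32 to 181, 79.8 and 57.5 FPKM (change 4.97 ± 1.30 SE, adjusted p = 0.0225). The call of A08276 was lost without button pileus 2, button pileus 3, maturation pileus 1 or maturation stipe 3 (adjusted p from 0.0505 to 0.0612).

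A second large group moved towards the pileus through a fall in the stipe. Of 57 heat-shock proteins and chaperones 5 were called higher (8.77%, against 5.9% of all tested genes) and 0 lower, and 8 and 1 without both libraries. The small heat-shock proteins of the Hsp20 family hold unfolded proteins. A05314 was at 128, 100.4 and 135 FPKM in the button pilei and 224, 361 and 294 FPKM in the button stipes. Mature pilei stood at 109, 97.3 and 20.8 FPKM and mature stipes at 5.48, 10.9 and 9.65 FPKM. The stipes were above the pilei in buttons and below all of them at maturation, and the change was 4.10 ± 0.66 (SE, limma adjusted p = 0.00178), or 5.05 (adjusted p = 4.88e-07) without both. A second, A02595, was at 17.8, 32.1 and 21.9 FPKM in the button stipes and 1.21, 1.3 and 1.74 FPKM in the mature stipes, with 18.1, 19.4 and 20.4 and 26.4, 27.2 and 4.58 FPKM in the pilei (change 3.59 ± 0.72 SE, adjusted p = 0.00616). The Hsp70 gene A09786 fell in the stipe from 497, 932 and 903 to 192, 262 and 224 FPKM, while the pilei were at 419, 408 and 444 and 939.6, 854 and 318 FPKM (change 2.32 ± 0.58 SE, adjusted p = 0.0175). In all 3 genes maturation pileus 3 was the lowest of the mature pilei. In A02595 and A09786 the other mature pilei were above the button pilei. Genes with the DNA-binding domain of heat-shock factors, a group of 6 made after the values were seen, were called higher in 2 and lower in 0 (3 and 1 without both). A05754 fell in the stipe from 501, 449.7 and 502 to 118, 87 and 124 FPKM (change 1.59 ± 0.37 SE, adjusted p = 0.0121). The other, A06326, had a change of 1.11 ± 0.25 (SE, limma adjusted p = 0.00994) and fell under the size of 1 without maturation pileus 1 (adjusted p = 0.029).

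Enzymes also fell in the maturing stipe. Proline dehydrogenase (A03523), the first step of proline breakdown, was at 122, 118 and 95.7 FPKM in the button pilei and 192, 132 and 169.9 FPKM in the button stipes. In mature pilei it was at 659, 419 and 58.8 FPKM, with 12.1, 11.6 and 12.3 FPKM in mature stipes (change 4.94 ± 0.83 SE, adjusted p = 0.00216). Maturation pileus 1 and 2 were thus above the button pilei in A03523, and maturation pileus 3 was below them. The carboxylesterase A04880 fell in the stipe from 42.5, 114 and 88.8 to 4.75, 6.81 and 8.98 FPKM (change 3.87 ± 0.61 SE, adjusted p = 0.00167). A gene of the PCI and proteasome regulatory subunit domains, A05466, fell in the stipe from 313, 429 and 419 to 77.1, 94.8 and 95.1 FPKM and was at 133, 105 and 113 and 134, 129 and 104 FPKM in the pilei (change 2.17 ± 0.25 SE, adjusted p = 0.00025). Its neighbour on contig 28, the cytochrome P450 gene A05467, fell from 175, 902 and 576 to 29.6, 46.8 and 36.3 FPKM in the stipe and remained higher there than in the pilei (change 4.16 ± 0.84 SE, adjusted p = 0.0064). A short-chain dehydrogenase, A01072, went from 174, 467 and 431 to 31, 29.7 and 34.5 FPKM in the stipe, against 21, 11.1 and 12.2 and 12.1, 10.2 and 27.6 FPKM in the pilei (change 3.45 ± 0.56 SE, adjusted p = 0.00178). The peptidase A09929, with the activation domain of the kumamolisins, fell from 273, 323 and 319 to 164, 143 and 125 FPKM in the stipe (change 2.08 ± 0.33 SE, adjusted p = 0.00167). The P450 A09607 passed from stipe to pileus at a low level, with 5.3, 10.1 and 5.71 FPKM in the button stipes and 0.865, 0.836 and 1.25 FPKM in the mature stipes, against 1.4, 1.05 and 1.06 and 2.19, 3.86 and 1.46 FPKM in the pilei (change 3.62 ± 0.53 SE, adjusted p = 0.00124). Among 138 P450 genes 13 were higher and 4 lower (30 and 19 without both). A glucose-methanol-choline oxidoreductase, A03060, fell in the stipe from 24.9, 177 and 136 to 4.12, 3.35 and 2.27 FPKM (change 4.53 ± 1.04 SE, adjusted p = 0.0118). The NADH dehydrogenase flavoprotein subunit of the respiratory chain, A03659, fell there from 421, 370.3 and 435 to 188, 201 and 174 FPKM (change 1.10 ± 0.26 SE, adjusted p = 0.0137). A glutathione S-transferase, A01638, fell from 18.1, 51 and 78.2 to 0.803, 0.775 and 0.258 FPKM in the stipe (change 4.54 ± 1.18 SE, adjusted p = 0.0219). The call of A01638 was lost without button pileus 2, button stipe 2, button stipe 3, maturation pileus 1 or maturation stipe 3 (adjusted p from 0.0513 to 0.064). The motor protein kinesin A02471 was at 77.2, 37.2 and 44.5 FPKM in the button stipes and 3.36, 6.16 and 3.01 FPKM in the mature stipes, against 81.8, 89.5 and 93 and 88, 78.6 and 12.1 FPKM in the pilei (change 2.63 ± 0.79 SE, adjusted p = 0.0442). The call of A02471 was lost without any 1 of the 12 libraries other than maturation pileus 3 and maturation stipe 2 (adjusted p from 0.0558 to 0.113).

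In some genes the tissues exchanged places. The largest change of all called genes was that of an F-box-like gene that StringTie predicted, a class whose products choose targets for ubiquitin ligases (contig 6, 1434778 to 1436258, minus strand). It was at 1.16, 0.761 and 0.661 FPKM in the button pilei and 105, 209 and 238 FPKM in the button stipes. By maturation the levels were 358, 359.9 and 48.2 FPKM in the pilei and 21.5, 13.7 and 22.7 FPKM in the stipes. The button pilei were the lowest and maturation pileus 1 and 2 the highest, and the groups of a stage did not overlap (change 10.81 ± 1.25 SE, adjusted p = 0.000246, or 12.14, adjusted p = 4.79e-06 without both). At harvest the pilei were spread over 32.3, 75.7 and 3.88 FPKM. Its 2 neighbours both encode MOSC domains, which in other proteins handle the molybdenum cofactor. A08527 went from 4.82, 2.88 and 3.21 to 31.1, 28.4 and 13.2 FPKM in the pileus and from 33.5, 56 and 87.9 to 12.6, 12.2 and 11.5 FPKM in the stipe (change 4.82 ± 0.59 SE, adjusted p = 0.000314). A08528 went from 1.11, 2.62 and 1.49 to 10.9, 7.5 and 1.99 FPKM in the pileus (change 2.29 ± 0.71 SE, adjusted p = 0.0489). The call of A08528 was lost without any 1 of the 12 libraries other than button pileus 2, button stipe 1 and maturation pileus 3 (adjusted p from 0.057 to 0.123). Another Hsp20 gene, A07792, was at 8.23, 9 and 7.15 and 307, 235 and 41.2 FPKM in the pilei and 41.3, 287 and 269.8 and 20.1, 47.5 and 17.5 FPKM in the stipes, so it rose in the pileus and fell in the stipe (change 6.66 ± 1.07 SE, adjusted p = 0.00178). A StringTie gene with a cellulose-binding domain (contig 3, 1268156 to 1269471, plus strand) did the same at low levels, with 5.12, 4.43 and 1.23 FPKM in the mature pilei and 0.286, 0.414 and 0.664 FPKM in the mature stipes (change 5.43 ± 1.16 SE, adjusted p = 0.00884). The ABC transporter A01486, the called member of 37, rose by 1.10 in the pileus and fell by 1.08 in the stipe (change 2.19 ± 0.47 SE, adjusted p = 0.00909). Its tissues moved apart without exchanging places, with means of 18.1 FPKM in the pileus and 12.4 FPKM in the stipe in buttons. At maturation these means were 42.8 and 5.6 FPKM. The largest gain among the NACHT-domain genes, of a nucleotide-binding domain, was that of A02572, which fell in the stipe from 3.66, 8.06 and 6.01 to 0.14, 0.567 and 0.54 FPKM (change 4.02 ± 0.89 SE, adjusted p = 0.0098). Of 379 such genes 25 were higher (6.6%) and 11 lower, which is near the share of all genes. They numbered 74 and 27 without both, 24 and 20 with quantile normalization and 19 and 13 with library totals.

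Of the 10 largest losses, A07300, a gene without a description, reached the highest level (contig 4, 1213914 to 1214420, plus strand). It was at 1540, 2008 and 2691 FPKM in the button pilei and 100.2, 26.1 and 26.1 FPKM in the button stipes. At maturation the pilei were at 28.1, 26.3 and 9.63 FPKM and the stipes at 8.92, 7.82 and 11.7 FPKM. Button pilei stood above the other 9 pileus and stipe libraries of these stages, and button stipe 1 was the highest of the stipes. The change was -4.59 ± 0.76 (SE, limma adjusted p = 0.0021), and -4.74 (adjusted p = 2.35e-05) without both libraries. It fell in both tissues, and by more in the pileus. The study designed a primer pair for quantitative PCR of this gene, printed here 5′ to 3′ because the gene has no description and the primers identify its transcript, with no base marked.
A07300 forward primer: atgcggctgctaatgtagtttc
A07300 reverse primer: gtcgtagtgctcgtcacctaaatc

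Genes with named domains also fell in the maturing pileus. A StringTie gene of the dynamin family, GTPases that pinch off membranes (contig 22, 473989 to 480580, minus strand), was at 216, 274 and 347 FPKM in the button pilei and 24.2, 57.1 and 46.9 FPKM in the button stipes. The mature pilei held 14.7, 15.5 and 28.4 FPKM and the mature stipes 41.1, 43.6 and 34.7 FPKM (change -3.85 ± 0.43 SE, adjusted p = 0.000171). The tubulin gene A01138, of the subunits of microtubules, was at 61.9, 65.8 and 75.8 FPKM and then 17.2, 15.8 and 25.6 FPKM in the pilei, and at 39.3, 60.4 and 51.4 and 76, 77.4 and 71.1 FPKM in the stipes (change -2.41 ± 0.25 SE, adjusted p = 0.000133). Among the 12 pileus and stipe libraries of these stages, all mature pilei were below all others in both genes except that the lowest button stipe of the dynamin gene, button stipe 1, was below maturation pileus 3. Argonaute A09535, of the proteins that carry the guide RNA in RNA silencing, fell from 99, 94.4 and 107 to 23.1, 34.5 and 33.6 FPKM in the pileus (change -1.10 ± 0.24 SE, adjusted p = 0.0104) and was under the size of 1 without button stipe 1 or maturation pileus 1 (adjusted p from 0.015 to 0.0252). The desaturase A04847 fell in the pileus from 54.2, 64.9 and 65.5 to 9.57, 10.2 and 8.12 FPKM, down to the level of the stipes, 17.5, 4.71 and 6.26 and 12.3, 13.7 and 9.26 FPKM (change -3.24 ± 0.50 SE, adjusted p = 0.00157). A CCCH zinc finger gene of StringTie (contig 7, 1136827 to 1139078, plus strand) fell from 12.9, 11.9 and 12.2 to 3.04, 3.78 and 3.71 FPKM (change -2.54 ± 0.36 SE, adjusted p = 0.000927). The NACHT gene A04970 fell from 16.9, 18.7 and 19.7 to 7.67, 8.19 and 7.33 FPKM (change -1.70 ± 0.30 SE, adjusted p = 0.00286). The P450 A00113 fell from 3.84, 3.51 and 6.14 to 0.147, 0.327 and 0.256 FPKM (change -4.42 ± 0.70 SE, adjusted p = 0.00171). The oxidoreductase A03058 fell from 2.33, 2.67 and 2.62 to 0.115, 0.146 and 0.08 FPKM (change -3.90 ± 0.60 SE, adjusted p = 0.00152), and both were at low levels throughout. The reverse transcriptase gene A08701 fell from 8.52, 9.35 and 9.65 to 2.71, 2.05 and 1.77 FPKM in the pileus (change -1.28 ± 0.29 SE, adjusted p = 0.0121).

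Several families held members that moved in opposite directions. Ser-Thr-rich proteins with a glycosyl-phosphatidyl-inositol anchor, a group of 6 made after the values were seen, had 2 called higher, 1 lower and 3 neither. A07675 was at 15110, 16600 and 13910 FPKM in the button pilei and 3822, 1677 and 1461 FPKM in the button stipes, and at 58.7, 176 and 67.6 and 115, 107 and 112 FPKM at maturation, so that it fell in both tissues and by more in the pileus (change -3.17 ± 0.84 SE, adjusted p = 0.0243). The call of A07675 was lost without any 1 of the 12 libraries other than button pileus 1, button stipe 1, maturation pileus 2, maturation pileus 3 and maturation stipe 3 (adjusted p from 0.0501 to 0.0659). A06939 was at 466, 256 and 212 FPKM in the button pilei and 2751, 5610 and 3088 FPKM in the button stipes, and at 6817, 6971 and 10980 and 5060, 3776 and 6838 FPKM at maturation (change 4.29 ± 0.52 SE, adjusted p = 0.000301). A08923 fell in the stipe from 42.8, 18.8 and 24.4 to 2.99, 2.48 and 4.86 FPKM and was at 126, 117 and 159.9 and 273, 239.7 and 67.1 FPKM in the pilei (change 3.29 ± 0.67 SE, adjusted p = 0.00659). The 2 genes of the unknown domain DUF4470, A09112 and A09119, lie on contig 7 and both fell in the pileus. A09112 went from 351, 449.6 and 561 to 21.4, 24.7 and 13.3 FPKM there (change -3.69 ± 0.82 SE, adjusted p = 0.0105). A09119 went from 128, 157 and 166 to 6.33, 6.37 and 5 FPKM (change -3.61 ± 0.45 SE, adjusted p = 0.000334). Of the remaining genes without a description among the 10 largest losses, a StringTie gene (contig 7, 1713778 to 1715580, plus strand), A06905 and A05786 passed from pileus in buttons to stipe at maturation. Their changes were -5.83, -4.39 and -4.33, with limma adjusted p of 0.000499, 2.72e-06 and 0.000217. In A06905 the pilei fell from 177, 208 and 202 to 13.2, 14.7 and 24.9 FPKM while the stipes were at 54.8, 52.4 and 46.2 and 80, 89.6 and 113 FPKM. The change of A00231 was -5.25 ± 1.56 (SE, limma adjusted p = 0.0412). The call of A00231 was lost without any 1 of the 12 libraries other than button stipe 1 and maturation pileus 3 (adjusted p from 0.0643 to 0.106).

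The largest loss of all called genes came from a rise in the stipe. The major facilitator transporter gene A08338 (contig 6, 517297 to 518721, plus strand) was at 14.2, 15.5 and 20.7 FPKM in the button pilei and 3.29, 2.37 and 0.974 FPKM in the button stipes. Mature pilei stood at 14.2, 12.8 and 142 FPKM and mature stipes at 1883, 1341 and 1279 FPKM. Button stipes were below button pilei, mature stipes were the highest of the 12 pileus and stipe libraries of these stages, and maturation pileus 3 was nearer to the stipes than the other mature pilei (change -8.64 ± 1.02 SE, adjusted p = 0.000258, or -10.13, adjusted p = 1.88e-07 without both). The gene before it, A08337, a glycosyl hydrolase of family 25, the family of some lysozymes, rose in the stipe from 8.24, 2.1 and 0.953 to 194, 123 and 201 FPKM and was at 3.2, 1.81 and 2.2 and 6.17, 3.44 and 12.2 FPKM in the pilei (change -4.57 ± 0.89 SE, adjusted p = 0.0053). A StringTie gene without a description (contig 3, 72647 to 73744, plus strand) rose in the stipe from 0.409, 0.207 and 0.511 to 39.8, 29.7 and 85.8 FPKM, while the pilei were at 1.4, 0.862 and 1.23 and 0.121, 0.232 and 15.6 FPKM (change -6.92 ± 1.56 SE, adjusted p = 0.0111). In this gene maturation pileus 3 was again nearer to the stipes. A StringTie gene of glycosyl hydrolase family 61 (contig 8, 1154946 to 1157741, minus strand), of copper enzymes that cleave cellulose by oxidation, rose in the stipe from 31, 17.8 and 22.4 to 168, 147 and 122 FPKM and fell in the pileus from 36.8, 29.3 and 21.8 to 4.83, 6.17 and 10.8 FPKM (change -4.69 ± 0.67 SE, adjusted p = 0.00105). Of 50 genes for plant cell wall breakdown 2 were higher and 2 lower. The balance turned with the setting, to 1 and 5 with quantile normalization, 1 and 6 with library totals and 12 and 5 without both libraries.

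Further genes whose difference moved towards the stipe belonged to amino acid synthesis, transport and signalling. A06013, an isopropylmalate synthase family gene with the LeuA regulatory domain of leucine synthesis, rose in the stipe from 9.59, 10.5 and 9.86 to 28.3, 29.1 and 32.6 FPKM (change -1.92 ± 0.20 SE, adjusted p = 0.000133). Enzymes around methionine and S-adenosylmethionine, a group of 13 made after the values were seen, had 0 called higher and 5 lower with and without both libraries. Over all tested genes 3.48% were called lower, or 11% without both. The 5 included A08899, described as a threonine synthase. The cobalamin-independent methionine synthase A05814 was at 145, 161 and 161 FPKM in the button pilei and 142, 175 and 213 FPKM in the button stipes. In mature pilei it was at 123, 146 and 205 FPKM, with 451, 479 and 544 FPKM in mature stipes (change -1.50 ± 0.31 SE, adjusted p = 0.00668). A07881, a methylenetetrahydrofolate reductase, which supplies its methyl group, fell in the pileus from 207, 214 and 208 to 67.4, 92 and 171 FPKM (change -1.48 ± 0.34 SE, adjusted p = 0.0114). Another gene of this reductase, A06092, was not called (change 0.24, limma adjusted p = 0.494). The S-adenosylmethionine synthetase A06206 had a change of -1.16 ± 0.36 (SE, limma adjusted p = 0.0484) and lost its call without any 1 of the 12 libraries other than button stipe 1 and maturation pileus 3 (adjusted p from 0.0597 to 0.119). The sodium/calcium exchanger A05549 rose in the stipe from 33.8, 41.6 and 42.4 to 206, 164 and 223 FPKM (change -2.62 ± 0.59 SE, adjusted p = 0.0109). The caspase-domain gene A09299, of the fold of proteases that act in cell death in animals, rose in the stipe from 7.07, 8.01 and 8.29 to 54.7, 28 and 59.8 FPKM (change -2.61 ± 0.56 SE, adjusted p = 0.00899), the called one of 9 such genes. The kinase A06788 rose in the stipe from 32.4, 21.6 and 26.3 to 56.1, 54.6 and 53.5 FPKM and fell in the pileus from 34.5, 37.9 and 30.7 to 14.9, 13.2 and 23.9 FPKM (change -2.08 ± 0.28 SE, adjusted p = 0.000616).

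Shifts towards the stipe also came from genes of several lists. The SNF2 family gene A07436, of ATPases that move nucleosomes, rose in the stipe from 13.1, 11.2 and 10.1 to 57.9, 52.2 and 79.5 FPKM (change -1.89 ± 0.26 SE, adjusted p = 0.000616). The leucine carboxyl methyltransferase A01460 rose there from 61, 66.9 and 54.4 to 128, 126 and 144 FPKM (change -1.31 ± 0.20 SE, adjusted p = 0.00152). The M20 family peptidase A07867 rose from 8.4, 11.2 and 9.41 to 85.3, 75.5 and 167 FPKM (change -2.59 ± 0.44 SE, adjusted p = 0.00255). A04975, with a short-chain dehydrogenase and a ricin-type lectin domain, rose in both tissues, and by more in the stipe, where it went from 38.8, 44.2 and 57.3 to 555, 576 and 429.7 FPKM (change -1.77 ± 0.46 SE, adjusted p = 0.0222). Its call was lost without button pileus 3, maturation pileus 1, maturation pileus 2, maturation stipe 1 or maturation stipe 2 (adjusted p from 0.0519 to 0.057). A Ctr copper transporter that StringTie predicted (contig 1, 1420576 to 1422498, minus strand) rose in the stipe from 3.12, 2.97 and 2.74 to 8.99, 11.9 and 13.5 FPKM, while the pilei were at 8.26, 12.5 and 16.6 and 17.9, 17.4 and 15.6 FPKM (change -1.41 ± 0.33 SE, adjusted p = 0.0131). Among 128 F-box and BTB genes 7 were higher (5.47%) and 10 lower (7.81%), against 5.9% and 3.48% of all tested genes. Without both libraries 21 were higher and 18 lower. The largest loss was that of A05289, which fell in the pileus from 3.58, 4.88 and 7.91 to 1.19, 1.38 and 0.669 FPKM and rose in the stipe from 0.958, 0.618 and 0.538 to 5.97, 6.39 and 6.08 FPKM (change -5.20 ± 0.80 SE, adjusted p = 0.00153). A StringTie gene with a CFEM domain, of fungal surface proteins (contig 18, 46302 to 47236, plus strand), moved the other way, from 5.28, 7.13 and 6.35 to 88.1, 56.3 and 21.3 FPKM in the pileus (change 2.91 ± 0.69 SE, adjusted p = 0.0146). A lytic transglycolase gene of StringTie (contig 1, 904366 to 905537, minus strand) fell in the pileus from 5, 5.69 and 8.29 to 2.69, 2.89 and 1.67 FPKM and rose in the stipe from 2.71, 1.72 and 1.34 to 7.8, 5.87 and 3.14 FPKM (change -2.81 ± 0.61 SE, adjusted p = 0.00899).

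The remaining genes that led a list had smaller changes, and most lost their call when a single library was left out. The NACHT and WD repeat gene A00065 fell in the stipe from 14.4, 11.7 and 12.3 to 4.83, 5.28 and 6.16 FPKM (change 1.68 ± 0.29 SE, adjusted p = 0.00257) and kept its call without each library. The aldehyde dehydrogenase A00153 rose in the pileus (change 3.19 ± 0.96 SE, adjusted p = 0.0426). The call of A00153 was lost without any 1 of the 12 libraries other than maturation pileus 3 and maturation stipe 1 (adjusted p from 0.0607 to 0.11). The mitochondrial carrier A07502 rose there too (change 1.22 ± 0.36 SE, adjusted p = 0.04). The call of A07502 was lost without any 1 of the 12 libraries other than button pileus 3, button stipe 1, maturation pileus 3 and maturation stipe 3 (adjusted p from 0.0685 to 0.102). In the stipe, another carrier, A01216, rose (change -1.14 ± 0.32 SE, adjusted p = 0.032). The call of A01216 was lost without any 1 of the 12 libraries other than button stipe 1, button stipe 2, maturation pileus 3 and maturation stipe 1 (adjusted p from 0.0529 to 0.0849). The Ras family GTPase A06071 rose there as well (change -1.16 ± 0.33 SE, adjusted p = 0.0352). The call of A06071 was lost without any 1 of the 12 libraries other than button stipe 1 and maturation pileus 3 (adjusted p from 0.0557 to 0.0935). The RNA recognition motif gene A03134 rose in the stipe from 44.6, 75.7 and 61.2 to 288, 317 and 167 FPKM (change -1.90 ± 0.56 SE, adjusted p = 0.0402). The call of A03134 was lost without any 1 of the 12 libraries other than button stipe 2, maturation pileus 3 and maturation stipe 3 (adjusted p from 0.0658 to 0.103). So did the CFEM gene A05247, from 744, 568 and 515 to 1758, 1385 and 1912 FPKM (change -1.66 ± 0.51 SE, adjusted p = 0.0475). The call of A05247 was lost without any 1 of the 12 libraries other than button stipe 1 and maturation pileus 3 (adjusted p from 0.0638 to 0.111). The terpene synthase A00732 fell in the pileus from 21, 22 and 25.5 to 12.7, 9.7 and 5.66 FPKM (change -1.30 ± 0.40 SE, adjusted p = 0.0498). The call of A00732 was lost, by its p or by the size of 1, without any 1 of the 12 libraries other than maturation pileus 1 and maturation stipe 2 (adjusted p from 0.0405 to 0.12).

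Families known from mushroom development were also read. Of 14 hydrophobin genes, the small surface proteins that coat aerial hyphae, limma called 0 either way, also with voom weights on reads recovered from the FPKM, and 1 had an unadjusted p under 0.05. The gene A06219 shows the spread behind this. It was at 21940, 12300 and 15510 FPKM in the button pilei and 23910, 589 and 377 FPKM in the button stipes. By maturation the levels were 35670, 67900 and 2282 FPKM in the pilei and 174, 245 and 559 FPKM in the stipes, with button stipe 1 at the level of the pilei and maturation pileus 3 far below the other mature pilei. Its change was 2.73 ± 1.99 (SE, limma adjusted p = 0.413), and 2.32 (adjusted p = 0.102) without both libraries. Of 5 tyrosinase genes, which start melanin formation and browning, limma called 0 (0 with voom weights and 0 at an unadjusted p under 0.05), and without both libraries 4 were lower. The tyrosinase A02061 was at 2143, 1560 and 673 FPKM in the button pilei and 6645, 18210 and 16290 FPKM in the button stipes. At maturation the pilei were at 51.8, 129 and 10260 FPKM and the stipes at 25020, 25480 and 18200 FPKM, with a change of -2.53 ± 1.84 (SE, limma adjusted p = 0.411), and -4.40 (adjusted p = 0.000191) without both. Here too maturation pileus 3 was nearer to the stipes than to the other mature pilei. Of 121 ribosomal protein genes limma called 0, also with voom weights, while at an unadjusted p under 0.05 it had 2 positive and 4 negative changes. Without both libraries 14 were higher and 3 lower. Of 36 genes of pheromone and G-protein signalling limma called 0, also with voom weights, with 4 positive and 4 negative changes at an unadjusted p under 0.05, and without both libraries 2 were higher and 3 lower.

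**Figure D4:**
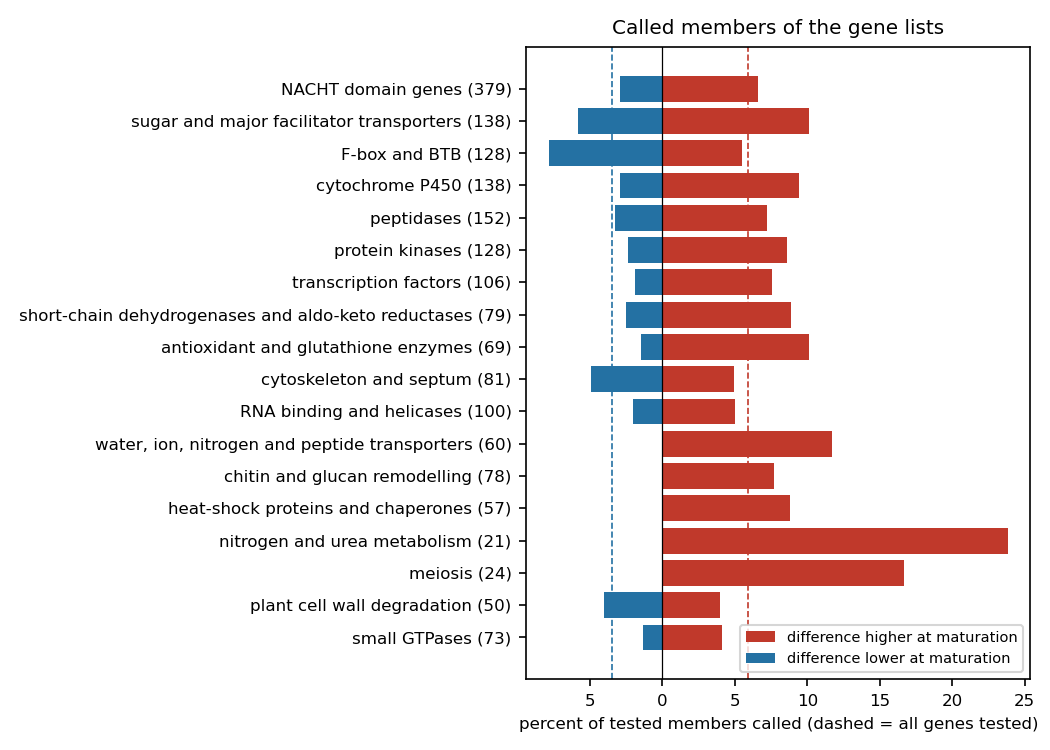
Percent of the tested members of each gene list that were called, higher at maturation to the right in red and lower to the left in blue, for the 18 lists of at least 10 tested members with the most calls (number of members in parentheses). Dashed lines give the share over all tested genes (5.9% higher and 3.48% lower), and meiosis (4 of 24) and nitrogen and urea metabolism (5 of 21) had 0 called lower.

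The harvest libraries did not enter the contrast. At harvest the difference lay between its button and maturation values in 472 of the 551 genes called higher (85.7%) and in 236 of the 325 called lower (72.6%). Over all tested genes this share was 37.0%. The called genes were chosen for a gap between their button and maturation values, so that a harvest value between them is largely set by that choice. By harvest a median of 47.7% of the change had been reached by the genes called higher and 38.8% by those called lower. The median over all tested genes was 48.3%, so the genes called higher were near it. By class the medians were 41.6% for pileus rose and 22.3% for pileus fell, against 58.3% for stipe fell and 54.4% for stipe rose. These shares are a description, since the button and maturation values in them are those that chose the genes. In A01110 the harvest pilei were at 242, 46.1 and 124 FPKM and the harvest stipes at 2.04, 1.68 and 2.28 FPKM, between the button and mature values of the pileus. In A03363 they were at 20.9, 13.3 and 12.5 FPKM, so most of its rise on the linear scale came after harvest.

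**Figure D5:**
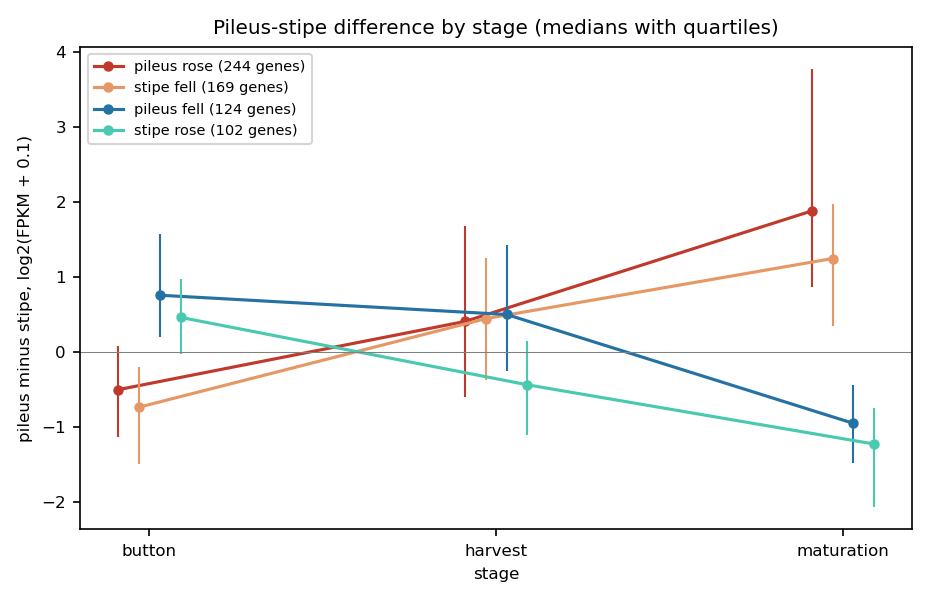
Pileus minus stipe on the log2(FPKM + 0.1) scale in buttons, at harvest and at maturation for the genes called in 1 tissue only, as medians (points) with quartiles (bars) over genes. The harvest medians lay between the button and maturation medians in all 4 classes, and at harvest the median was 0.41 for genes that rose in the pileus and 0.50 for genes that fell there.

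Whole fruit bodies at the same stages, sequenced as separate libraries, were read for the same genes. All 3 mature fruit bodies were above all 3 button fruit bodies in 79 of the 244 genes that rose in the pileus alone (32.4%), and below in 0, while 14.7% of all tested genes were higher without overlap and 15.2% lower. For genes that fell in the pileus alone, 44 of 124 (35.5%) were lower and 0 higher. For genes that fell in the stipe alone, 57 of 169 (33.7%) were lower and 0 higher, and for genes that rose in the stipe alone 32 of 102 (31.4%) were higher and 0 lower. Of the genes in which the tissues moved apart, 34 called higher and 6 called lower, 0 were separated in the fruit bodies either way. Where both tissues rose, 28 of 33 genes called higher and 15 of 15 called lower were higher without overlap in the fruit bodies. Where both fell, 15 of 15 and 13 of 15 were lower without overlap. Most genes called in 1 tissue alone, or moving apart, were not separated in the fruit bodies, and libraries of a stage differed widely there. A01110 was at 7.69, 492 and 1396 FPKM in mature fruit bodies 1, 2 and 3.

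Some called genes lay beside each other. Untested genes were skipped in this reading. The next tested gene on the contig was called in the same direction for 67 of 546 genes called higher (12.3%, against 5.89% over all next tested genes). For genes called lower it was 30 of 322 (9.32% against 3.51%). There were 14 runs of at least 3 successive tested genes called in the same direction. Some gene models in these runs nearly touched, and whether such models were parts of a single transcript was not tested. The runs included the F-box-like gene with both MOSC genes on contig 6, A03523 (proline dehydrogenase) with a protein kinase gene on contig 1, A05064 (oxoprolinase) with an enoyl reductase gene on contig 24, and A05466 with A05467 on contig 28. Of the 876 called genes 13 overlap another gene model, and for these the reads of the 2 genes could not be told apart.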

How the data were processed

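RNA was sequenced from pileus, stipe and other material of Agaricus blazei strain JA in 33 libraries, of which 12 carry the comparison. The authors cleaned the reads, aligned them with Hisat2 to the JA-15036 assembly, added genes with StringTie, counted reads with featureCounts (version 1.5.0-p3 per the labels) and deposited FPKM per gene. The formula behind the FPKM, the strand setting and the handling of reads with several matches were not stated.

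Groups were taken from the sample labels. Genes with a mean of at least 0.5 FPKM over the 18 pileus and stipe libraries (9338) were fitted as log2(FPKM + 0.1) with limma 3.58.1 (R 4.3.3, intensity trend, group means, moderated statistics), and p-values were adjusted by the Benjamini-Hochberg method over all of them. The threshold was 0.05 for the adjusted p and 1 for the log2 size. The pseudocount understates the change of genes at low levels, and fold changes are on this scale. A tissue or stage counted as having moved when it passed the same thresholds. Whole reads were recovered from FPKM and gene length within a tolerance of 1e-06 and served for depth and for an alternative with voom weights.

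The members, the gene lists (by words in the gene descriptions, 33 from the design and 11 added from the descriptions) and the tests were chosen with earlier results of these data known. The genes named were, among the called genes with a group mean of at least 20 FPKM, the 10 largest gains and the 10 largest losses, then the called gene with the largest gain and the largest loss in each list, and the 4 described genes with the smallest adjusted p of each tissue class. Others are said to have been named after their values were seen, or belong to a group said to be made then, and further ones (regulators, meiosis, replication and arginine genes, the Hsp20 and Hsp70 genes, A09112, A09119 and A05549) were also named after their values were seen. On simulated data with 9309 genes the test recovered 14 of 100 genes of log2 size 2 and 54 of 100 of size 3, with 1 false call. The simulation gave all genes the same relative spread, changed only the mature pileus and held no library that stood apart from its label. Its figures therefore do not give the recovery or the false calls of the test on the real libraries. Alternatives changed the pseudocount, filter, scaling, variance model and libraries. Promoter and protein sequences were not used here, and some genes that the naming rule chose are not reported here.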

Additional observations from a re-analysis of the deposited data

Results flagged for a closer look

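The change from button to maturation differed between pileus and stipe, by a test of the difference itself in limma, in 551 genes in which it was higher in the pileus and in 325 genes in which it was lower. These are the called genes described above. Of the 551, 543 were called in the same direction without maturation pileus 3 and button stipe 1, and of the 325, 307 were. These libraries were the nearest to the other tissue of their stage, so the kept calls are no separate support. In 38 of the 551 the tissues exchanged places from stipe to pileus, and in 18 of the 325 from pileus to stipe.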

How the results depend on the processing

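The number of called genes was 876, and it was 531 (318 higher and 213 lower) when the fit used the 12 libraries of button and maturation alone, whose spread was estimated from fewer samples. In that fit 151 genes rose in the pileus alone, 99 fell and 65 rose in the stipe alone, 24 moved apart, 142 differed at the button stage and not at maturation, 257 the other way round, and 37 changed sides. With all 33 libraries 21 genes moved apart, and with Augustus genes alone 37 changed sides. Quantile normalization gave 490 genes lower. Voom weights on recovered reads gave 700 genes (393 higher and 307 lower). Without maturation pileus 3 and button stipe 1 the counts were 2489 genes (1462 higher and 1027 lower), 551 with a rise and 346 with a fall in the pileus alone, 442 with a fall and 331 with a rise in the stipe alone, 171 moved apart, 516 different at the button stage and not at maturation, 1092 the other way round and 154 that changed sides. The cause of these differences was not tested. With each library left out in turn the total ranged from 561 to 2202, higher from 350 to 1305, lower from 211 to 897, moved apart from 21 to 123, button stage and not maturation from 124 to 455, maturation and not button from 257 to 1257, pileus fell from 83 to 274, pileus rose from 144 to 493, changed sides from 27 to 104, stipe fell from 113 to 414 and stipe rose from 68 to 334. A replicate block gave 814 genes (511 higher and 303 lower). The deviations of same-numbered libraries correlated at -0.228 to 0.235 over 18 pairs, so the numbers were not taken to pair the samples. Of 107 called genes named in the text, 77 kept their call under all 26 alternatives, 0 changed direction, 21 lost the call when 1 library was left out (each named above) and 1, A02462, without both libraries. The replicate block changed the call of 7 of them. Voom weights lost the call of 13, the 12 libraries alone of 16 and all 33 libraries of 15.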
